A study of Mus musculus with 42 samples.

Results

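Cytochrome P450 genes of the mouse lung were followed over a day in mice kept in their home cage or in an SD cage. The members are the protein-coding genes of the deposited table whose symbol is Cyp, a family number, a subfamily letter and a gene number, with Cyp2f2 left out. There are 92 such genes among 54532. Of these, 28 had a mean of at least 0.5 FPKM (fragments normalised for gene length and library size) over the 42 libraries and were tested. A further 54 lay above 0 but under that level, and 10 were at 0 in every library. All mice were C57BL/6J of genotype WT, and the labels name no other allele and no drug. They spent 20 h a day for 2 days, from clock hour 14 to clock hour 10, in the SD cage (SD group) or the home cage (Ctrl group). The series title ties the SD cage to sleep deficiency. Lights came on at clock hour 8 (ZT0) and went off at ZT12, with food and water always at hand. Lungs were taken every 4 h from ZT0 to ZT24, which gives 7 times, 14 groups and 3 libraries in each group. Whether the ZT0 lungs preceded or followed the final cage stay is not stated. The labels call the libraries biological replicates but do not say whether one holds 1 animal or a pool, so the p-values measure the spread between these libraries.

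P450 enzymes are membrane-bound haem proteins. They use molecular oxygen and electrons passed on by partner proteins such as P450 oxidoreductase (Por) to oxidise small molecules. Families 1 to 3 are best known for foreign compounds, family 4 and subfamily 2j for fatty acids and eicosanoids, families 7, 8, 27, 39 and 46 for sterols, and family 26 for the clearance of retinoic acid. In mouse lung, club cells of the airway lining are a known site of high P450 content, and Cyp1a1 is the classic target of the aryl hydrocarbon receptor.

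The libraries held 25285525 to 29790252 reads. The median spread of 3 libraries of a group on the log2(FPKM + 1) scale was 0.0838 for the tested P450 genes and 0.082 for all tested genes. Club cell secretory protein (Scgb1a1) stood at 57800 ± 3940 FPKM in Ctrl-ZT0 and 66800 ± 7030 in SD-ZT0 (standard deviation, SD, n = 3 each), so the defining airway marker of the labelled tissue was present. The 3 SD libraries of ZT0 stood apart from the other 39 in higher levels of genes known as hepatocyte markers, described with the weakly expressed members.

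The level of expression spanned a wide range, and FPKM values are per gene length, so that genes can be set side by side. Cyp4b1, which oxidises fatty acids and the pneumotoxin ipomeanol, was highest with a mean of 250 FPKM over the 42 libraries. Cyp2b10, the mouse phenobarbital-inducible enzyme, followed at 127 FPKM, Cyp1a1 at 65.1, Cyp2s1 at 35.2 and Cyp2a5, the coumarin 7-hydroxylase, at 26.1. By role, 11 of 26 fatty acid genes were tested, 9 of 47 xenobiotic genes, 5 of 6 sterol and bile acid genes, 1 of 3 retinoid genes, 1 of 3 vitamin D genes, 0 of 6 steroid hormone genes and the orphan Cyp20a1. Fatty acid and xenobiotic genes held 48.2% and 43.6% of the summed mean FPKM of all members. Just inside the filter were Cyp2t4 (1.09 FPKM), Cyp2r1 (0.742) and Cyp46a1 (0.545), and just outside it Cyp2u1 (0.394), Cyp2b19 (0.318) and Cyp2g1 (0.283).

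**Figure D1:**
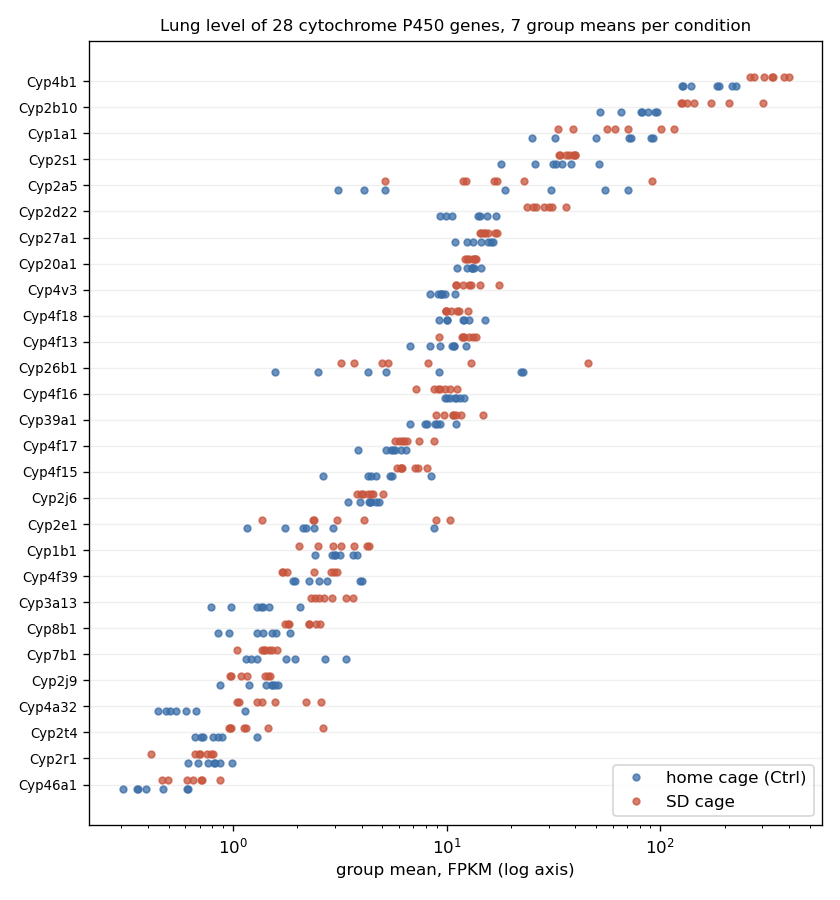
Mean FPKM of each group (points, 3 libraries each; log axis) for the 28 tested P450 genes, ordered by their mean over 42 libraries, with the 7 Ctrl groups and the 7 SD groups in separate colours. Cyp4b1 and Cyp2b10 lie highest with no overlap between conditions, while the points of Cyp2a5 and Cyp26b1 spread widest within a condition.

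Promoters of 4 members are printed because their genes carry the main results: Cyp1a1 and Cyp2a5 for their daily courses, Cyp2b10 for its difference between conditions and Cyp26b1 for its peaks. Each is the 250 bases before the RefSeq gene start on GRCm38.p6, 5′ to 3′ on the gene's strand. Capitals mark the core of the aryl hydrocarbon receptor element (GCGTG on either strand) in the first and second, and the TATA box letters TATAAA in the others. Relative to the RefSeq start, TATAAA begins at -29 in Cyp2a5 but at -139 in Cyp26b1. Cyp1a1 also holds 1 TATAAA, which is left in lower case.
Cyp1a1: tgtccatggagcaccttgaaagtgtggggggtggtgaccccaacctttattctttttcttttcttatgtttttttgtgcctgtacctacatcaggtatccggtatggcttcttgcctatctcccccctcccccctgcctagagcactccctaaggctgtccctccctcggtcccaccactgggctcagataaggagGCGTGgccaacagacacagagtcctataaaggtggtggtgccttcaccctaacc
Cyp2b10: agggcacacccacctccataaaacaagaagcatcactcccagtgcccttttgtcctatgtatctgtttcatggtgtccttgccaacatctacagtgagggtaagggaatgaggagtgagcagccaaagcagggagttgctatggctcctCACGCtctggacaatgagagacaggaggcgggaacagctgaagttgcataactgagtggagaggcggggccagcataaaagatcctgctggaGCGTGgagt
Cyp2a5: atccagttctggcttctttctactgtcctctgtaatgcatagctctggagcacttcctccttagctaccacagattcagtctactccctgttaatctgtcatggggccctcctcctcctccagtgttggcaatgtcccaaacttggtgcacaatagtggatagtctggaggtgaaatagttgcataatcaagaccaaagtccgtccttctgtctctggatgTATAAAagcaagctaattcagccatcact
Cyp26b1: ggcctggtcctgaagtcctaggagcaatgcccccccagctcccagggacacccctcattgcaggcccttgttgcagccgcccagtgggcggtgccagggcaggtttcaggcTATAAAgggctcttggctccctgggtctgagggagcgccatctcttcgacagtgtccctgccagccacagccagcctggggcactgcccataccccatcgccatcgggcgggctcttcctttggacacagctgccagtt
These stretches lie at chr9:57697363-57697612 (plus strand), chr7:25897408-25897657 (plus), chr7:26835089-26835338 (plus) and chr6:84593811-84594060 (minus). The RefSeq start of each lies inside the deposited interval of its gene, for Cyp1a1 several kilobases in, so other starts may also be in use. A promoter was at hand for 24 of the 28 tested members, not for Cyp39a1, Cyp4f17, Cyp7b1 and Cyp2d22. Of 8 motifs searched on both strands, GCGTG was found in 9 of 24, against 28.2% of all 32851 promoters of the same length. CCAAT was found in 11 (33.8% of all), TATAAA in 6 (12.4%), the E-box CACGTG in 2 (6.02%) and the receptor element AGGTCA in 1 (14.0%). The D-box (TTATGTAA or TTACGTAA, 0.931% of all), TAGGTCA (2.23%) and the glucocorticoid response element (0.387%) were found in 0. Only fixed spellings of each motif were searched, so a variant of a site would be missed. AGGTCA is contained in TAGGTCA. The promoters printed and the motif capitalised in each were chosen after the matches were seen. A match here is a description of letters and not of binding.

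Averaged over the 7 times, P450 genes were more often higher than lower in SD lungs. With limma and Benjamini-Hochberg adjustment over all 16962 tested genes, 24 of 28 members passed an adjusted p of 0.05, against 69.9% of all genes. Of them 19 rose and 5 fell, while among all genes 34.6% rose and 35.3% fell. The median difference of log2(FPKM + 1) was 0.21 for the 28 members and -0.003 for all genes. Among xenobiotic genes 8 of 9 rose and 0 fell, among fatty acid genes 6 of 11 rose and 4 fell, and among sterol genes 4 of 5 rose and 1 fell. The differences were not even over the day: when the 14 group means were the units, with time as a block, 8 members were called, all higher (16.9% of all genes). Those 8 were Cyp2d22, Cyp4b1, Cyp3a13, Cyp4v3, Cyp2b10, Cyp4a32, Cyp8b1 and Cyp4f13, which are also the members whose SD mean was above the Ctrl mean at 7 of 7 times.

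**Figure D2:**
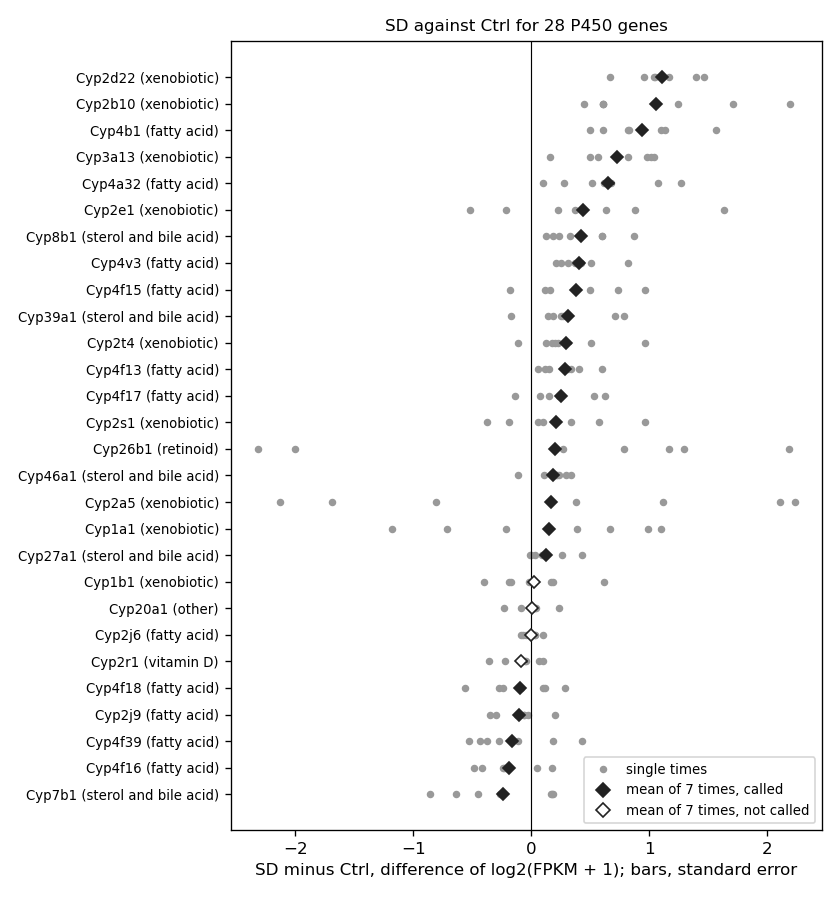
SD minus Ctrl difference of log2(FPKM + 1) for the 28 tested P450 genes, with small points for the 7 single times and diamonds for their mean with its standard error (filled, adjusted p under 0.05). All 7 points of Cyp2d22, Cyp2b10 and Cyp4b1 lie right of 0, while the points of Cyp26b1, Cyp2a5 and Cyp1a1 lie far out on both sides of it.

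Cyp2d22 (ENSMUSG00000061740, mm10 chr15:82370527-82380260), a mouse member of the 2d drug-metabolising subfamily, showed the largest averaged rise of the 28. Its 3 Ctrl values ran from 8.75 to 9.85 FPKM at ZT16, the lowest Ctrl time, and from 16.7 to 17.6 at ZT20, the highest. In SD lungs the values ran from 22.2 to 24.8 at ZT12 and from 35.2 to 36.8 at ZT20. Every SD library was thus above every Ctrl library, whatever the time. The averaged difference of log2(FPKM + 1) was 1.11 ± 0.0164 (SE), a 2.16-fold rise (limma adjusted p = 1.29e-32).

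Cyp2b10 (ENSMUSG00000030483, chr7:25897620-25926624), whose promoter is printed above, rose at every time but by very different amounts. At ZT4 its Ctrl libraries held 96.5, 98.1 and 95 FPKM and its SD libraries 133, 136 and 129. At ZT16 they held 50, 54.9 and 51.2 against 175, 173 and 171, and at ZT20 64.8, 64 and 66.7 against 310, 301 and 300. The groups did not overlap at any of these times, and the night values of SD lungs were the farthest from Ctrl. The fold was 1.37 at ZT4, 3.28 at ZT16 and 4.60 at ZT20 (limma adjusted p = 1.08e-12, 1.36e-28 and 2.89e-31). Over all times it was 2.09, or 1.06 ± 0.0127 (SE) on the log2 scale.

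Cyp4b1 (ENSMUSG00000028713, chr4:115624725-115647723), the most abundant member, held 127, 127 and 125 FPKM in Ctrl-ZT16 and 379, 374 and 381 in SD-ZT16. At ZT0, where the difference was smallest, the values were 188, 184 and 182 against 257, 270 and 257. Here too the libraries of both conditions stood apart at each time. The fold was 2.97 at ZT16 and 1.42 at ZT0 (limma adjusted p = 5.09e-26 and 1.71e-12), and 1.92 over all times. Club cell markers were named because Cyp4b1 and Cyp2b10 are known club cell enzymes. They moved in part alike: 7 of 10 rose and 3 fell on average (34.6% and 35.3% of all genes). Their summed FPKM was lowest in Ctrl-ZT16 (29900) and highest in Ctrl-ZT4 (100000), and lay between 72000 and 99900 in the SD groups. At ZT0 most of this sum was Scgb1a1, whose values are given above, so the sum says little about the other markers. None of the 10 was at 0. In whole lung, more cells of a type and more RNA per cell cannot be told apart, and the part of club cells in these differences was not tested.

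Cyp3a13, a member of the drug-metabolising 3a subfamily, had 0.778, 1.02 and 0.575 FPKM in Ctrl-ZT16 and 2.40, 2.52 and 3.10 in SD-ZT16. It rose 2.06-fold there and 1.65-fold over all times (limma adjusted p = 4.29e-12 and 2.72e-19), but at ZT4 it was not called (0.16 on the log2 scale, adjusted p = 0.164). Cyp4a32, of the fatty acid omega-hydroxylase subfamily 4a, held 0.480, 0.544 and 0.436 FPKM in Ctrl-ZT20 and 2.55, 2.49 and 2.73 in SD-ZT20. Its averaged rise was 1.57-fold (adjusted p = 2.45e-13), and at ZT4 the difference of 0.10 was not called and turned to -0.026 without Ctrl-ZT4 replicate 2 and to -0.032 without SD-ZT4 replicate 1. It was not called at ZT24 either (0.28, adjusted p = 0.0776). The 4a genes are close copies of each other, so reads may be shared among them. Cyp8b1, the sterol 12-alpha-hydroxylase of bile acid synthesis, held 0.894, 0.923 and 1.06 FPKM in Ctrl-ZT4 and 2.55, 2.65 and 2.51 in SD-ZT4, and rose 1.34-fold on average (adjusted p = 1.92e-11). It was not called at ZT16 (0.19) and ZT24 (0.13). These 3 genes are far lower in level than Cyp4b1. The SD and Ctrl libraries of Cyp4a32 overlapped at ZT4 and ZT24 and those of Cyp8b1 at ZT24.

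**Figure D3:**
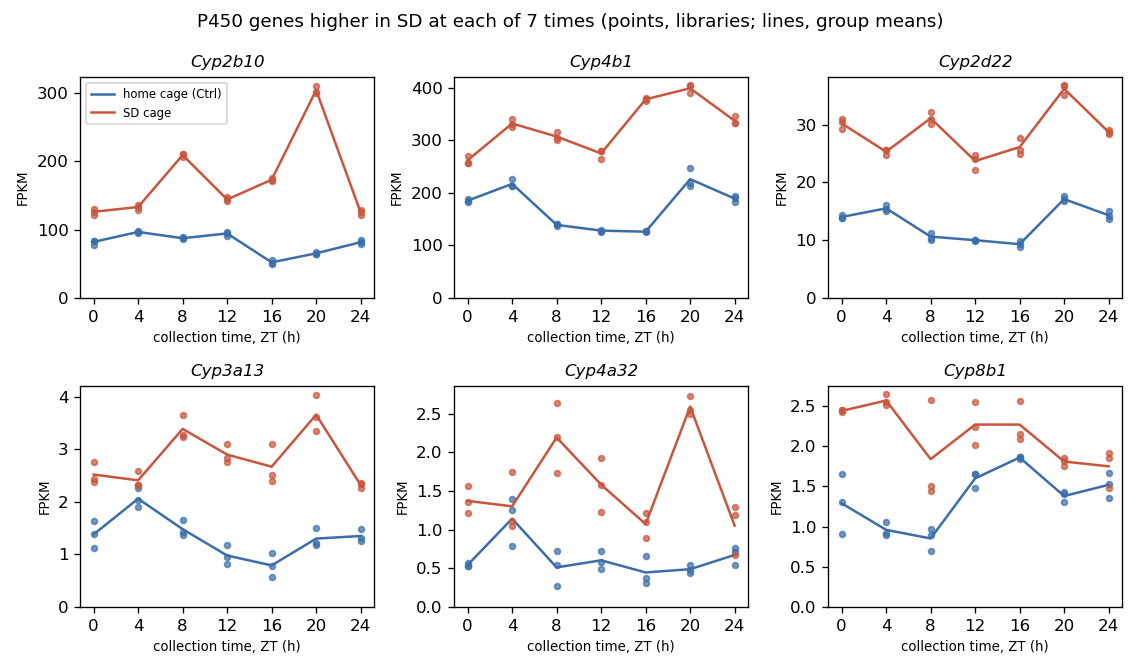
FPKM by collection time for the 6 P450 genes with the largest averaged rises that kept their side at 6 or more times; points are libraries and lines group means of the home cage (Ctrl) and SD cage. The SD line lies above the Ctrl line at each of the 7 times in all 6 genes, with the widest gap of Cyp2b10 at ZT20 (304 against 65.2 FPKM).

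Other averaged rises were those of Cyp2e1 (0.44 on the log2 scale), Cyp4v3 (0.41), Cyp4f15 (0.38), Cyp39a1, an oxysterol 7-alpha-hydroxylase (0.31), Cyp2t4 (0.30), Cyp4f13 (0.29), Cyp4f17 (0.25), Cyp2s1 (0.21), Cyp46a1, the cholesterol 24-hydroxylase known from brain (0.19), and Cyp27a1, the sterol 27-hydroxylase (0.13). Without ZT0 the difference of Cyp2e1 was 0.23, without ZT16 that of Cyp2s1 was 0.087 and that of Cyp27a1 0.083, and without ZT20 that of Cyp2t4 was 0.19, all still called. Those that fell were Cyp7b1 (-0.24), Cyp4f16 (-0.19), Cyp4f39 (-0.16), Cyp2j9 (-0.10) and Cyp4f18, which inactivates leukotriene B4 (-0.09). Cyp2j9, of the fatty acid and eicosanoid subfamily 2j, was the only faller on its side at 6 or more times. Its Ctrl libraries held 1.26, 1.56 and 1.47 FPKM at ZT8 and its SD libraries 0.956, 1.03 and 0.937. That was a difference of -0.30 there and of -0.10 ± 0.0353 (SE) on average (limma adjusted p = 0.00718 and 0.0104). The 2 conditions did not overlap at ZT8, but the averaged call was lost without ZT8 (-0.071, adjusted p = 0.123) or ZT20 (-0.061, 0.141). That of Cyp4f18 was lost without ZT0 (-0.061), ZT8 (-0.065) or ZT16 (-0.011), that of Cyp4f39 without ZT0 (-0.094), and without ZT12 Cyp7b1 stood at -0.13. The 4 members not called were Cyp1b1 (0.029), Cyp20a1 (0.0051), Cyp2j6 (-0.00057) and Cyp2r1, a vitamin D 25-hydroxylase (-0.084). Exons of Cyp2s1, Cyp2t4 and Cyp4f18 overlap another gene on the other strand and those of Cyp4v3 one on the same strand. How strand was counted is not given in the sources used here, so their reads cannot be fully told apart from the neighbour's.

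The size of the difference changed with time in 26 of 28 members (limma F test of the interaction), which is 92.9% of them against 81.7% of all genes. It was not called in Cyp2j6 (adjusted p = 0.574) and Cyp2r1 (0.169). At ZT0 the called members were 16 higher and 4 lower (18.0% and 19.7% of all genes, 37.7% in all), and at ZT4 10 and 6 (19.2% and 20.1%, 39.2% in all). At ZT8 they were 16 and 7 (27.1% and 28.9%, 56.0% in all), and at ZT12 13 and 4 (24.4% each way, 48.9% in all). At ZT16 they were 18 and 5 (29.1% and 27.1%, 56.1% in all), at ZT20 18 and 6 (33.0% and 28.4%, 61.4% in all), and at ZT24 12 and 4 (24.4% and 22.3%, 46.8% in all). Higher calls thus outnumbered lower ones at each of the 7 times, while over all genes the directions were near even. The median P450 difference was largest at ZT16 (0.42) and ZT20 (0.37) and smallest at ZT4 (0.08). Ctrl-ZT16 was the lowest Ctrl group for 17 of the 28 members. Markers of several cell types differed at ZT16 too: all 10 of type 2 cells, 8 of type 1 cells and 6 of smooth muscle were higher in SD, as were 8 of 10 of club cells, with 1 lower. All 9 of B and plasma cells, 8 of alveolar macrophages and 7 of cardiac muscle were lower. Of 8 tested mucous airway markers 7 were lower and 1 higher. Of 10 endothelial markers 6 were higher and 2 lower, and of 8 fibroblast markers 5 and 3. Of 8 ciliated markers 2 were higher and 0 lower, and all 6 tested hepatocyte markers were higher. Their part in the P450 differences was not tested. The 3 SD libraries lay above the 3 Ctrl libraries in 18 members at ZT0 and below them in 5. Of all 16962 genes 46.3% did not overlap there, 3755 above and 4099 below. The member counts were 11 and 6 at ZT4 (49.7% of all genes, 4082 above and 4355 below) and 16 and 7 at ZT8 (63.4%, 5217 and 5539). They were 14 and 5 at ZT12 (56.0%, 4829 and 4675) and 20 and 5 at ZT16 (60.0%, 5280 and 4896). At ZT20 they were 18 and 6 (62.9%, 5716 and 4952), and at ZT24 13 and 4 (52.9%, 4692 and 4279).

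Cyp26b1 (ENSMUSG00000063415, chr6:84571414-84593908), which clears retinoic acid, had the smallest p of the interaction. In Ctrl lungs it held 22.9, 22.3 and 21.8 FPKM at ZT12 and 22.4, 23.3 and 23.0 at ZT24, but 2.46, 2.52 and 2.49 at ZT8 and 1.59, 1.37 and 1.80 at ZT20. In SD lungs the highest time was ZT4, with 44.8, 46.9 and 45.4 FPKM, and the next was ZT16 with 12.9, 12.8 and 13.2. ZT12 and ZT24 were low with 3.63, 3.38 and 4.00, and 4.92, 5 and 5.04. The lowest SD time was ZT8, with 3.27, 3.25 and 3.1 FPKM. High groups thus stood apart from their neighbours 4 h away, and no group held both high and low libraries. SD minus Ctrl was 4.58-fold higher at ZT4 and fell by 2.32 on the log2 scale at ZT12 and by 2.00 at ZT24 (limma adjusted p = 7.82e-27, 3.09e-28 and 4.16e-26). The averaged difference of 0.20 turned to -0.13 without ZT4 and was not called without ZT16 (0.039) or ZT20 (0.018). Without ZT12 it was 0.62 and without ZT24 0.57.

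No 24 h rhythm of Cyp26b1 was called in Ctrl (adjusted p = 0.714) or SD (0.556). Of the 12 tested genes of the retinoid pathway, 5 rose and 4 fell on average, near the split of all genes (34.6% and 35.3%). Crabp1, a retinoic acid binding protein, fell by 0.73 on the log2 scale and Rdh10, which makes retinal, fell by 0.33, while Dhrs3, which reduces retinal, rose by 0.33. The retinoic acid receptor genes Rara, Rarb and Rarg were not called (0.038, -0.014 and 0.036). Markers of mucous airway cells also differed between Ctrl times: their summed FPKM was 706 at ZT4, 1360 at ZT8, 1150 at ZT12 and 733 at ZT24, and 407 to 445 at ZT0, ZT16 and ZT20. Cardiac muscle markers summed to 69.3 in Ctrl-ZT20 and 265 in Ctrl-ZT8. In SD-ZT4, where Cyp26b1 was highest, the sums were 481 and 121. Their part in the course of Cyp26b1 was not tested.

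Cyp2a5 (ENSMUSG00000005547, chr7:26835305-26843548) had the largest fitted daily amplitude of the tested members in Ctrl lungs. Its libraries held 4.56, 4.04 and 3.71 FPKM at ZT0, 53.8, 54.7 and 56.8 at ZT4, 69.5, 71.2 and 71.1 at ZT8, and 3.40, 2.91 and 3.02 at ZT20. In SD lungs they held 21.7, 24.2 and 23.1 at ZT0, 11.7, 12.9 and 11 at ZT4, 92.5, 90.5 and 92.6 at ZT8, and 16.6, 17.1 and 16.5 at ZT20. ZT8 was thus highest in both conditions, while ZT4 was high in Ctrl only and the Ctrl lows were not reached at ZT0 and ZT20 in SD. SD minus Ctrl was 4.71-fold higher at ZT0 and 4.32-fold higher at ZT20, and fell by 2.13 on the log2 scale at ZT4 and by 1.69 at ZT24 (limma adjusted p = 3.11e-24, 2.91e-24, 1.55e-23 and 4.25e-21). Its averaged difference of 0.17 turned to -0.17 without ZT0 and to -0.15 without ZT20, and was not called without ZT16 (0.017). Without ZT4 it was 0.56 and without ZT24 0.48. Cyp2a5 has near-identical relatives in the 2a cluster, so its reads may be shared with them.

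Cyp1a1 (ENSMUSG00000032315, chr9:57687928-57703824) was high at night in Ctrl lungs, with 91.7, 95.5 and 90.5 FPKM at ZT16 and 84.8, 99.8 and 86.1 at ZT20, and low at ZT8 with 25.3, 23.8 and 26. SD lungs were also lowest at ZT8, with 34.0, 33.4 and 32.2 FPKM, and were low at ZT20 with 38.6, 38.8 and 40.2. They were high at ZT4 with 99.4, 102 and 101 and at ZT24 with 118, 118 and 113. Ctrl thus lay above SD at ZT0, ZT16 and ZT20 and below it at ZT4, ZT8, ZT12 and ZT24, with no overlap of libraries at any time. SD minus Ctrl fell by 1.18 on the log2 scale at ZT20 and by 0.71 at ZT16, and was 2.15-fold higher at ZT12 and 1.99-fold higher at ZT4 (limma adjusted p = 4e-21, 2.45e-15, 5.75e-20 and 2.81e-18). The averaged difference of 0.15 turned to -0.0068 without ZT12 and was not called without ZT4 (0.012). Without ZT20 it was 0.37. Its receptor gene Ahr fell on average by 0.53 on the log2 scale, and Tiparp, another target of that receptor, rose by 0.40. Of the 10 tested receptor genes and partners on that list, 7 rose and 3 fell (34.6% and 35.3% of all genes).

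Cyp2e1 (ENSMUSG00000025479, chr7:140763739-140774987), which oxidises ethanol and other small solvents, held 8.62, 8.43 and 9.03 FPKM in Ctrl-ZT8 and 10.2, 10.5 and 10.5 in SD-ZT8, and at most 3.20 in any other Ctrl library. In SD-ZT0 it held 8.19, 8.64 and 10.1, against 2.54, 2.17 and 1.88 in Ctrl-ZT0. It was thus high at ZT8 in both conditions and at ZT0 in SD, where it rose 3.12-fold (limma adjusted p = 2.88e-16). Cyp2e1 is also strong in liver and fat. Adipocyte markers summed to 124 FPKM in Ctrl-ZT8, 112 in SD-ZT8 and 87.3 in Ctrl-ZT24, and to 13.1 to 50 in the other groups. In SD-ZT0 liver transcripts were also high, with albumin (Alb) at 57.7 ± 2.32 FPKM against 1.13 ± 0.0452 in Ctrl-ZT0 (SD, n = 3 each). The part of either tissue in the Cyp2e1 values was not tested.

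Cyp7b1 (ENSMUSG00000039519, chr3:18071950-18243338), the oxysterol 7-alpha-hydroxylase that clears 25-hydroxycholesterol, showed a daily wave in Ctrl lungs that was not called in SD lungs, with a called difference between the rhythms (adjusted p = 9.35e-10). The Ctrl libraries held 1.24, 1.16 and 1.06 FPKM at ZT0, 3.46, 3.05 and 3.60 at ZT12, and 2.76, 2.36 and 2.99 at ZT16. The SD libraries held 1.42, 1.37 and 1.41 at ZT12 and 1.54, 1.33 and 1.24 at ZT16, and ranged from 0.894 to 1.75 over the whole day. The Ctrl values at ZT12 and ZT16 thus lay above every SD value. SD minus Ctrl fell by 0.86 on the log2 scale at ZT12 and by 0.64 at ZT16 (limma adjusted p = 5.17e-12 and 2.22e-09). Of the 7 tested oxysterol pathway genes, 5 rose and 1 fell on average (34.6% and 35.3% of all genes). The one that fell was Gpr183, the receptor that guides B cells to oxysterols (-0.66), while Ch25h, which makes 25-hydroxycholesterol, was not called (0.068). B and plasma cell markers, all 9 of which fell on average, summed to 1460 FPKM in Ctrl-ZT16, 697 in Ctrl-ZT12, 703 in Ctrl-ZT8, where Cyp7b1 had a mean of 1.96 FPKM, 203 to 386 in the other Ctrl groups and 134 to 213 in the SD groups. The 8 alveolar macrophage markers summed to 768 in Ctrl-ZT12, 1240 in Ctrl-ZT16, 368 to 440 in the other Ctrl groups and 536 to 773 in the SD groups, and 5 of them were lower in SD at ZT12 and 8 at ZT16. The part of either cell type in the Cyp7b1 values was not tested.

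Cyp2s1 (ENSMUSG00000040703, chr7:25802475-25816913), an epithelial P450, ran from 18.7, 17.5 and 17.9 FPKM at ZT16 to 53.2, 50.5 and 50.9 at ZT4 in Ctrl lungs. In SD lungs every library lay between 33.2 and 41.5 FPKM. The course was thus narrower in SD, with a highest over lowest group mean of 1.20 against 2.86 in Ctrl. SD minus Ctrl was 1.96-fold higher at ZT16 and fell by 0.37 on the log2 scale at ZT4 (limma adjusted p = 3.09e-18 and 1.12e-07).

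**Figure D4:**
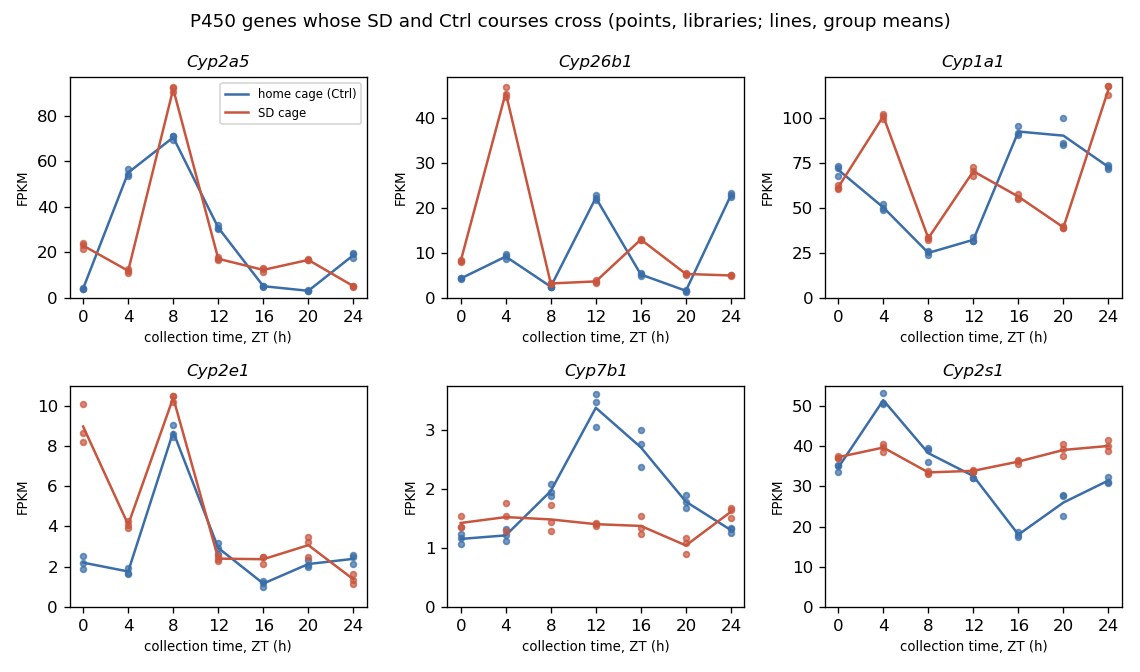
FPKM by collection time for 6 P450 genes whose courses cross; points are libraries and lines group means of the home cage (Ctrl) and SD cage. Cyp26b1 peaks at ZT12 and ZT24 in Ctrl and at ZT4 in SD, and Cyp7b1 rises to 3.37 FPKM at ZT12 in Ctrl while SD stays between 1.04 and 1.61.

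A 24 h cosine was fitted to each condition to ask which members were rhythmic. With limma, 21 of 28 members were called in Ctrl (57.6% of all genes) and 5 in SD (9.20%), and a different rhythm between conditions was called in 15 (30.3%). The largest Ctrl amplitudes on the log2 scale were those of Cyp2a5 (2.24 ± 0.181 SE, peak at ZT 7.29), Cyp1a1 (0.92, ZT 20.2), Cyp2e1 (0.63, ZT 7.65), Cyp2s1 (0.60, ZT 5.10) and Cyp4f15 (0.52, ZT 4.57). Cyp7b1 had 0.49 with its peak at ZT 13.5. In SD the called members were Cyp4f39, a relative of a human fatty acid hydroxylase of the skin barrier (0.35, ZT 19.8), Cyp1b1 (0.27, ZT 2.10), Cyp4f17 (0.20, ZT 19.7), Cyp2j6 (0.14, ZT 4.10) and Cyp2s1 (0.11, ZT 23.1). The call of Cyp1b1 was lost without ZT0 or without any 1 library of SD-ZT16, and that of Cyp2j6 without replicate 1 or 2 of SD-ZT4 or SD-ZT16. The count in SD was therefore 3 without replicate 1 or replicate 2 of SD-ZT16 (7.33% and 7.44% of all genes), and 8 without ZT24 (12%). The test of the difference was strongest for Cyp7b1 (adjusted p = 9.35e-10), Cyp2s1 (1.2e-08) and Cyp4f15 (3.68e-05).

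These counts rest on treating the 3 libraries of a time as separate points of the curve. With the 7 group means as units, 2 members were called in Ctrl, Cyp7b1 (adjusted p = 0.0321) and Cyp2a5 (0.0494), against 2.27% of all genes. By the same limma test 0 were called in SD (0.0118% of all genes) and 0 for a different rhythm (0.0% of all genes). An unadjusted p under 0.05 was found in 1 member in SD, Cyp4f39, and in 7 for a different rhythm. The share of all genes at that unadjusted threshold was not counted, so these counts have no background beside them. A one-way F test over the 7 times, which asks for any change, called 27 members in each condition, against 74.3% of all genes in Ctrl and 79.7% in SD. Clock genes were tested beside them: Dbp, a bZIP factor that drives Cyp2a5 in mouse liver, ran from 1.55 to 77.1 FPKM over the Ctrl group means with its peak at ZT 8.96 and from 2.13 to 41.7 in SD with its peak at ZT 9.78.

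ZT0 and ZT24 are the same clock hour a day apart. In Ctrl 6 members differed between them (2 higher and 4 lower at ZT24, against 6.94% and 5.97% of all genes, 12.9% in all), and in SD 12 did (4 higher and 8 lower, against 20.4% and 18.2%, 38.5% in all). Cyp26b1 rose 4.50-fold and Cyp2a5 3.88-fold from Ctrl-ZT0 to Ctrl-ZT24, where Cyp2a5 had reached 17.6, 19.1 and 19.6 FPKM. Cyp2t4 fell by 0.46 in Ctrl. In SD, Cyp1a1 rose 1.88-fold, while Cyp2e1 fell by 2.08 and Cyp2a5 by 1.97 (limma adjusted p = 3.36e-17, 1.1e-18 and 1.03e-22). Cyp26b1 was also called lower at ZT24 than at ZT0 in SD, by 0.62 on the log2 scale. Cyp26b1 and Cyp2a5 thus both differed between ZT24 and ZT0 upward in Ctrl and downward in SD. In Ctrl the means at ZT0 and ZT24 were close for Cyp1a1 (71.2 and 72.8 FPKM) and Cyp2e1 (2.20 and 2.39).

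Genes that serve P450 enzymes were tested beside them, where 34.6% of all genes rose and 35.3% fell on average. Of 9 redox partners 6 rose and 2 fell on average, and Por rose by 0.55 (limma adjusted p = 6.32e-24), from 38.7 FPKM in Ctrl-ZT16 to 86.2 in SD-ZT16. Of 12 genes of haem synthesis and breakdown 5 rose and 4 fell, near the split of all genes, and Alas1, the first enzyme of haem synthesis, rose by 0.32. Among 19 other tested drug metabolism genes 16 rose and 1 fell, among them the sulfotransferase Sult1a1 (1.59) and the lung flavin monooxygenase Fmo2 (1.08), which both rose. Of 12 tested epoxide and eicosanoid genes 6 rose and 5 fell, and of 15 clock and PAR bZIP genes 14 rose and 1 fell. Of the 4 P450 genes outside the rule, the club cell gene Cyp2f2 (0.67) and prostacyclin synthase Ptgis (0.61) rose, and Cyp51 of cholesterol synthesis (-0.53) and thromboxane synthase Tbxas1 (-0.12) fell.

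The 64 members under the filter include most P450 genes of the liver, and they stood out in the 3 SD libraries of ZT0. Their summed level there was 16, 17.1 and 17.9 FPKM, and between 1.20 and 3.07 in each of the other 39 libraries. In 20 of the 64, all 3 SD-ZT0 libraries lay above all 39 others, against 0.692% of all genes under the filter and above 0. Among the 28 tested members 0 did so (0.289% of tested genes). This way of counting was chosen after the values were seen. Without the filter, 37 members rose and 5 fell at ZT0 (8.66% and 8.56% of all genes by limma), against 16 and 4 with it. Averaged over 7 times, 52 of 82 members were then called (38.0% of all genes, 17.7% higher and 20.3% lower). For Cyp3a11, Cyp4a14 and Cyp2d9, added in this way, the averaged differences were 0.17, 0.19 and 0.2. At ZT0 they were 1.13, 1.2 and 1.32, and at ZT16 0.1, 0.027 and 0.034. The averages of these genes thus rested mainly on ZT0.

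Cyp3a11 (ENSMUSG00000056035, chr5:145854426-145879964), a main drug-metabolising enzyme of mouse liver, held 1.10, 1.22 and 1.23 FPKM in SD-ZT0 from 159, 173 and 181 reads. It had 0 reads in all 3 Ctrl-ZT0 libraries and 37 reads in the other 39 libraries together. Against a floor of 3 reads over the group it was at least 171-fold higher in SD-ZT0 than in Ctrl-ZT0. Cyp4a14, an inducible fatty acid hydroxylase of liver, held 1.19, 1.22 and 1.50 FPKM against 0 reads, at least 96.3-fold higher. Cyp2d9, a steroid 16-alpha-hydroxylase of mouse liver, held 1.32, 1.83 and 1.49 FPKM in SD-ZT0 and 0, 0.0133 and 0.0261 in Ctrl-ZT0. Cyp2c29 held 0.861, 0.951 and 0.645 and Cyp1a2, a liver relative of Cyp1a1, 0.785, 0.982 and 0.516. Genes of the 2c, 2d and 4a clusters have close copies among which reads may be shared.

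In all, 16 members under the filter reached a group mean of 0.5 FPKM. For 13 that group was SD-ZT0: Cyp2d9 (1.54), Cyp2d26 (1.36), Cyp4a14 (1.30), Cyp3a11 (1.18), Cyp2d10 (1.13), Cyp4a10 (1.12), Cyp2c70 (1.01), Cyp3a25 (0.907), Cyp2c29 (0.819), Cyp1a2 (0.761), Cyp2c54 (0.750), Cyp2c50 (0.748) and Cyp2c37 (0.528). The other 3 were Cyp2b19 and Cyp2g1, highest in Ctrl-ZT4 (0.618 and 0.599 FPKM), and Cyp2u1, highest in SD-ZT16 (0.556). These 3 did not stand out at SD-ZT0.

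Hepatocyte markers were measured beside them. Albumin (Alb) was 55.3, 60.0 and 57.9 FPKM in SD-ZT0 and 1.10, 1.11 and 1.18 in Ctrl-ZT0. All 10 markers were above 0 in SD-ZT0 and summed to 141 to 162 FPKM, against 1.21 to 3.81 in the Ctrl libraries. Ttr was at 0 in Ctrl-ZT12, Fgb in Ctrl-ZT8 and SD-ZT12, and Serpina1a in Ctrl-ZT8 and Ctrl-ZT24. In SD-ZT16 they summed to 13.0 to 15.7 FPKM, with Alb at 4.93, 4.49 and 4.21, and there Cyp3a11 and Cyp2c29 held 31 and 28 reads over 3 libraries, against 0 and 1 in SD-ZT4. In SD-ZT20 the sum of 24.9 to 28.9 FPKM was mostly Tat, a glucocorticoid-responsive gene (24.0 ± 1.49 FPKM; SD, n = 3). In SD-ZT8 the sum was 13.8 to 14.5 FPKM, of which Tat made up 11.9 ± 0.324, with Alb at 0.396, 0.433 and 0.456. The members under the filter summed to 2.13, 2.39 and 2.21 FPKM in SD-ZT8, 3.07, 2.65 and 2.33 in SD-ZT16, and 2.32, 2.14 and 1.75 in SD-ZT20. The part of liver RNA in the P450 values was not tested. Among the tested members, Cyp2e1, Cyp2a5, Cyp8b1 and Cyp7b1 are examples, not a full list, of genes that liver also expresses. Without ZT0 their averaged differences were 0.23, -0.17, 0.39 and -0.31, all called, and 23 of 28 members were called (18 higher and 5 lower), against 69.0% of all genes.

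**Figure D5:**
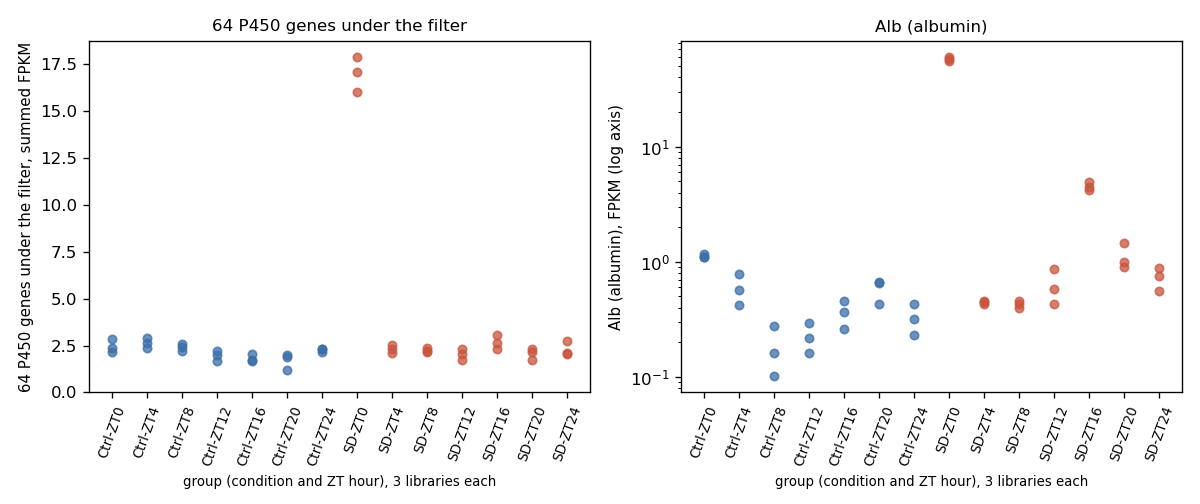
Summed FPKM of the 64 P450 genes under the filter (left) and FPKM of albumin (right, log axis) in each library, 3 per group. The 3 SD-ZT0 libraries lie at 16 to 17.9 and at 55.3 to 60.0 FPKM, above every other library in both panels.

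Steroid hormone genes were near 0: Cyp11b1 and Cyp11b2, the last steps of corticosteroid synthesis, had 0 reads in all libraries, Cyp19a1 (aromatase) had 3 and Cyp11a1, the first step, 302 over 42 libraries. The vitamin D genes Cyp24a1 and Cyp27b1 had 10 and 272 reads, and Cyp7a1, the rate-limiting enzyme of bile acid synthesis, 9. Without the filter Cyp11a1 was lower in SD at ZT0, with 14, 16 and 24 reads in Ctrl and 3, 3 and 2 in SD (-0.15 on the log2 scale, limma adjusted p = 1.26e-05), at ZT16 (-0.090, 0.00337) and on average (-0.062, 7.68e-07). Cyp27b1 was higher on average (0.058, 0.0317). Cyp7a1 had 4, 0 and 5 reads in SD-ZT0 and 0 in the other 39 libraries. It was called higher at ZT0 (0.035, limma adjusted p = 0.00113). The groups share 1 estimate of the spread, so this p does not measure the spread of the SD-ZT0 libraries. At such low levels log2(FPKM + 1) understates a change.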

How the data were processed

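Lung RNA of 42 libraries was measured by RNA-seq. The deposited table holds FPKM values per gene. The submitters' processing notes name HISAT2 2.0.5, featureCounts 1.5.0-p3 and mm10; the tool that made the FPKM, the annotation release, and the strand and multi-mapping settings were not given in the sources used here. Value times gene length gave whole reads (within 0.1) for 99.943% to 100.0% of values, which gave the depth. Groups came from the labels. Differences were tested with limma 3.58.1 (R 4.3.3; trend, 14 group means) on log2(FPKM + 1), for 16962 genes with a mean of at least 0.5 FPKM, with Benjamini-Hochberg adjustment over all of them at 0.05; folds are on that scale and understate changes of low genes. Rhythm was a 24 h cosine per condition. Alternatives changed the filter, pseudocount, scaling, weights, units (group means) and the libraries or times used. The code was tested on simulated data. Values after ± are standard errors of the fits or standard deviations of the libraries of a group. Both measure the spread of libraries around the fit or the group mean. The floor used for groups without reads covers counting error only.

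The members, gene lists and tests were chosen with earlier results of these data known, and the alternatives that leave out ZT0 to ZT20 after seeing the data. Named genes were Cyp26b1, Cyp7b1, the 6 largest averaged rises and falls on 1 side at 6 or more times, the largest rise and fall at each time and between ZT0 and ZT24, the 5 largest amplitudes, the 5 smallest interaction p, the 5 highest levels, those next to the filter, and members under it with a group mean of 0.5; others named with a value were chosen after values were seen. Promoter sequences are from RefSeq, GRCm38.p6.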

Additional observations from a re-analysis of the deposited data

Results flagged for a closer look

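The difference between SD and Ctrl lungs depended on the time of day in 26 of 28 P450 genes, against 81.7% of all tested genes. The adjusted p of this interaction (limma) was 9.92e-33 for Cyp26b1, 4.89e-30 for Cyp2a5, 1.86e-25 for Cyp2b10, 2.4e-25 for Cyp1a1 and 3.53e-17 for Cyp2s1. Of these, Cyp2b10 was higher in SD at each of the 7 times, while the other 4 lay above Ctrl at some times and below it at others.

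A 24 h curve that differed between the conditions was called in 15 P450 genes, against 30.3% of all tested genes. The adjusted p (limma) was 9.35e-10 for Cyp7b1, 1.2e-08 for Cyp2s1 and 3.68e-05 for Cyp4f15. With group means as units 0 were called.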

How the results depend on the processing

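Of the single-gene values recomputed under each alternative, 9016 kept their direction and side of the threshold, 135 lost the call, 45 gained it and 57 changed sign; of the counts of calls, 703 stayed within 1.5 times and 12 did not. Without the filter, 52 of 82 members were called on average (38.0% of all genes) and 42 at ZT0 (17.2%). For the interaction 54 were called (42.4%), and 34 between ZT24 and ZT0 in SD (17.3%). More members were tested there, among them the liver genes high in SD-ZT0. With group means as units the counts were 8 on average, 2 and 0 for rhythm in Ctrl and SD, and 0 for a different rhythm. Rhythm in SD was called in 8 without ZT24 (12% of all genes), in 27 by a one-way F test (79.7%), and in 3 to 6 leaving out a library (7.24% to 9.20%). The averaged count was 24 to 25 leaving out a library. Averages changed sign for Cyp1a1 (-0.0068 without ZT12, -0.13 without ZT8, ZT12, ZT16 and ZT24), Cyp26b1 (-0.13 without ZT4), Cyp2a5 (-0.17 without ZT0, -0.15 without ZT20), Cyp1b1 (-0.027 at equal totals, -0.069 without ZT20), Cyp20a1 (-0.0021 by median of ratios, -0.064 at equal totals, -0.0013 without ZT24, -0.0001 without ZT8, -0.033 without ZT16, -0.10 without those 4 times, -0.0058 to 0.017 leaving out a library) and Cyp2j6 (0.017 with array weights, 0.0061 without ZT24, 0.011 without ZT8, 0.013 without ZT20, -0.011 to 0.0098 leaving out a library). Leaving out a library, the range at a single time crossed 0 for Cyp1b1 at ZT24 (-0.048 to 0.015), Cyp2j6 at ZT0 (-0.018 to 0.10), ZT4 (-0.025 to 0.11), ZT12 (-0.062 to 0.054) and ZT24 (-0.079 to 0.0012), Cyp2j9 at ZT12 (-0.17 to 0.015) and ZT24 (-0.18 to 0.030), and Cyp4a32 at ZT4 (-0.032 to 0.19). Cyp2j6 at ZT12 was -0.029 at equal totals and -0.020 with array weights, and Cyp4f17 at ZT8 was -0.010 at equal totals. The cause was not tested. Replicate numbers did not pair libraries: deviations correlated with a median r of 0.00025 over 273 same-number pairs, and with the number as a replicate block 24 members were called on average, as without it. Depth limits the members under the filter, most of which hold few reads.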
